A study of Danio rerio with 57 samples.

Results

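The Hox genes of zebrafish embryos were followed by cluster and paralog number across age, substance, concentration and start of exposure. Members were the genes of the count table whose symbol, ignoring case, begins with hoxa, hoxb, hoxc or hoxd and a digit. This gave 48 of 32520 genes, and all 48 passed the filter on low counts and were among the 24246 genes tested. By symbol, 11 lie in cluster A, 15 in cluster B, 15 in cluster C and 7 in cluster D. By paralog number, 10 are anterior (1 to 3), 15 central (4 to 8) and 23 posterior (9 to 13).

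Each library was made from the RNA of a pool of 20 whole embryos of the wild-type strain OBI/WIK. In the late exposure scenario, exposure started at 24 hpf (hours post fertilisation) with sorafenib at 1.3 or 2.4 µM, rotenone at 25 or 50 nM, or the solvent DMSO alone, and embryos were sampled at 36, 48 and 96 hpf. Each of these groups had 3 libraries, except the DMSO group at 48 hpf, of which 2 were used. The early exposure scenario has libraries of 96 hpf embryos, of which 4 were exposed to 2.4 µM sorafenib, 4 to 25 nM rotenone and 3 to DMSO. The sample labels give the early start as 0 hpf and the exposure protocol as 2 hpf. All treated groups received DMSO as well. Sorafenib inhibits Raf and receptor tyrosine kinases, including the receptors for vascular endothelial growth factor, and rotenone blocks complex I of the mitochondrial respiratory chain.

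Hox genes encode homeodomain transcription factors that give cells their position along the head-to-tail axis. They lie in clusters, and within a cluster genes of low paralog number act in the hindbrain and pharyngeal region, while genes of high number act in the posterior trunk, the tail and the distal part of paired appendages. Genes with the same number in different clusters descend from one ancestral gene. Zebrafish carry duplicated copies of several clusters, marked a and b. Here the letters A, B and C each pool members of both copies, so their counts and sums do not describe a single genomic cluster. Retinoic acid activates anterior Hox genes in the hindbrain, Cdx factors and fibroblast growth factors act on the posterior ones, and Pbx and Meis proteins bind DNA together with Hox proteins.

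The 55 libraries used, of 57, held between 20609990 and 86897183 counts with a median of 42602706, and Hox genes took 0.0474% to 0.106% of the counts. The lowest Hox count in any library was 10. Levels are given as CPM (counts scaled to the library total, with TMM, edgeR's correction for composition). Differences are log2 fold changes with the standard error (SE), and a gene was called differentially expressed at a Benjamini-Hochberg adjusted p under 0.05 in edgeR's quasi-likelihood test over all tested genes. Gene length was not used, so the levels of different genes or gene classes give reads and not transcripts, and only the same gene or sum was compared between groups. A RefSeq annotation names 1 zebrafish gene for 38 of the 48 rows, whereas 10 rows form pairs under one symbol (HOXA11, HOXB5, HOXC6, HOXC12 and HOXC13) whose copies are told apart here by identifier only. On that annotation, made on another assembly (GRCz12tu) than the one used for alignment (GRCz11), 18 Hox genes overlap another Hox gene. Among them are hoxa3a, hoxb3a, hoxc3a and hoxd3a, the likely counterparts by symbol of HOXA3, HOXB3, hoxc3a and HOXD3. The strand setting of the counting was not given. Libraries T16 (2.4 µM sorafenib, 36 hpf) and T37 (50 nM rotenone, 36 hpf) stood apart, with TMM factors of 0.676 and 0.657 against 0.925 to 0.999 in the other libraries of that age. T49 (25 nM rotenone, 48 hpf) had a factor of 0.798 against 0.896 to 0.969, and some fits were repeated without these 3 libraries. In pools of whole embryos, fewer cells of a type and less RNA per cell cannot be told apart.

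In the DMSO controls of the late exposure scenario, the Hox genes together reached 879 to 906 CPM at 36 hpf, 1021 to 1033 CPM at 48 hpf and 482 to 502 CPM at 96 hpf, so that the libraries of the 3 ages did not overlap. The anterior sum had means of 379, 442 and 166 CPM, the central sum 245, 301 and 178 CPM, and the posterior sum 269, 284 and 151 CPM, at 36, 48 and 96 hpf. Between 48 and 96 hpf the libraries did not overlap in any of the 3 classes, which went from 441 to 444 down to 163 to 168 CPM (anterior), from 294 to 307 down to 173 to 183 CPM (central) and from 283 to 285 down to 146 to 154 CPM (posterior). By cluster, the mean sums at these ages were 168, 183 and 82.9 CPM for A, 415, 505 and 222 CPM for B, 213, 232 and 132.5 CPM for C and 97.9, 107 and 57.3 CPM for D, so that each cluster had its highest sum at 48 hpf and its lowest at 96 hpf.

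**Figure D1:**
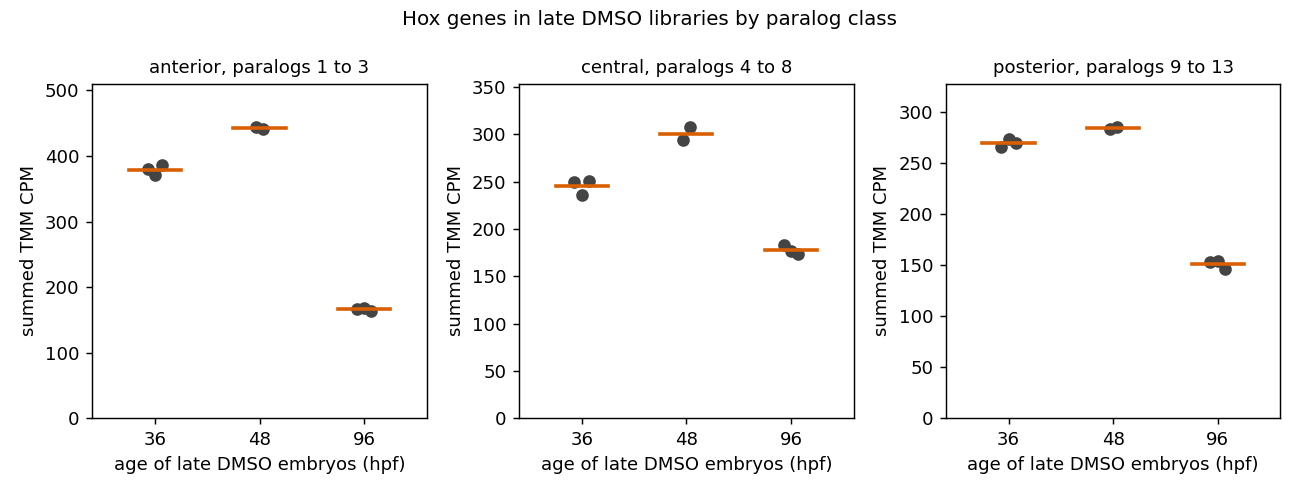
Summed CPM of the anterior, central and posterior Hox genes in each DMSO library of the late exposure scenario at 36, 48 and 96 hpf, with points for libraries and lines for means. The anterior sum went from a mean of 379 CPM at 36 hpf to 166 CPM at 96 hpf, the central sum from 245 to 178 CPM and the posterior sum from 269 to 151 CPM.

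The member with the most reads at 36 hpf was a paralog of number 3 in every cluster, and its values are given for each. This ranks reads and not transcripts, and neither gene length nor the overlaps named above were taken into account. HOXA3 (ENSDARG00000103862), whose mouse counterpart is needed for the thymus and parathyroid, had 79.1, 78.1 and 78.4 CPM in the DMSO libraries at 36 hpf, 79.8 and 77.6 CPM at 48 hpf and 30.0, 30.5 and 30.6 CPM at 96 hpf. The libraries at 36 and 48 hpf overlapped, and every library at 96 hpf was lower. HOXB3 (ENSDARG00000029263), a hindbrain and pharyngeal gene, had 115, 105 and 112 CPM at 36 hpf, 156 and 164 CPM at 48 hpf and 58.0, 59.1 and 54.9 CPM at 96 hpf. For hoxc3a (ENSDARG00000070339) the values were 43.8, 44.4 and 48.1 CPM, then 46.3 and 44.2 CPM, then 25.0, 25.2 and 23.8 CPM. The 36 and 48 hpf libraries of hoxc3a overlapped, unlike those of HOXB3. HOXD3 (ENSDARG00000059280), whose mouse counterpart shapes the first neck vertebra, had 31.3, 30.8 and 29.9 CPM at 36 hpf, 43.6 and 43.2 CPM at 48 hpf and 21.9, 21.5 and 20.9 CPM at 96 hpf.

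Between 36 and 48 hpf in DMSO, 12 Hox genes rose and 3 fell, where 21.1% and 12.7% of all tested genes did. The 12 increases among the 48 members were near the share of all tested genes, and the 3 decreases were below it. The median Hox log2 fold change was 0.12, against 0.04 over all tested genes. Central members moved most often, with 6 of 15 higher and 1 lower and a median of 0.31. Of the 10 anterior members 2 rose and 1 fell, and of the 23 posterior members 4 rose and 1 fell. Among the 4 genes of paralog number 5, which act in the anterior trunk and shoulder region of the mouse, 3 rose, and their median was 0.57. On the RefSeq annotation the likely counterparts of these genes each overlap another Hox gene, so their reads may not be separate from those of that gene.

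HOXD3, with the values above, rose by 0.50 (SE 0.076, adjusted p = 8.48e-07). HOXC4 (ENSDARG00000070338), a gene of the anterior spinal cord and trunk, had 17.8, 16.8 and 15.5 CPM at 36 hpf and 25.2 and 32.4 CPM at 48 hpf. The log2 fold change was 0.79 (SE 0.13, adjusted p = 3.6e-06), although the 2 later libraries were far apart. HOXC5 (ENSDARG00000070340) showed the same spread, with 4.87, 3.81 and 5.08 CPM followed by 7.77 and 10.8 CPM, and a log2 fold change of 1.01 (SE 0.17, adjusted p = 5.17e-06). HOXB5 (ENSDARG00000013057) went from 15.7, 15.2 and 16.4 CPM to 22.7 and 25.9 CPM (0.63, SE 0.11, adjusted p = 5.38e-06). None of these 4 genes had overlapping libraries at the 2 ages. The likely RefSeq counterparts of HOXC4 and HOXC5 both overlap hoxc3a, so these rows may not be separate observations. The other 8 that rose were HOXB3, HOXA5, hoxa10b, hoxa13b, hoxb6b, HOXC8, HOXC11 and HOXD11, with log2 fold changes from 0.35 for HOXC8 to 0.82 for hoxb6b.

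The 3 members that fell were 1 anterior, 1 central and 1 posterior gene. For hoxb1a (ENSDARG00000008174), which marks the hindbrain segment that forms facial motor neurons, values went from 5.36, 5.05 and 4.51 CPM to 2.82 and 2.95 CPM (-0.79, SE 0.24, adjusted p = 0.00976). HOXD4 (ENSDARG00000059276), a retinoic acid-responsive gene of the posterior hindbrain, had 18.7, 19.6 and 20.4 CPM and then 14.6 and 15.3 CPM (-0.39, SE 0.14, adjusted p = 0.0232). HOXC13 (ENSDARG00000070353), whose mouse counterpart is required for hair and nails, had 11.6, 10.9 and 11.2 CPM and then 8.43 and 9.02 CPM (-0.36, SE 0.14, adjusted p = 0.0361). Here too the libraries of the 2 ages did not overlap. With only 2 control libraries at 48 hpf, these counts rest on few pools: 8 Hox genes were called without T55 and 9 without T54. The call of hoxb1a was lost without T54 (adjusted p = 0.0834) or T55 (0.0583), that of HOXD4 without T30 (0.0675), T54 (0.151) or T55 (0.0815), and that of this HOXC13 copy without any library but T29 (0.0638 to 0.218).

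From 48 to 96 hpf, 40 Hox genes fell and 1 rose, where 26.3% of all tested genes fell and 32.3% rose. The median over the Hox genes was -0.92, against 0.08 over all tested genes. All 10 anterior members fell (median -1.43), as did 11 of 15 central members (median -0.92) and 19 of 23 posterior members (median -0.69). By cluster, 11 of 11 members of A fell (median -1.02), 12 of 15 of B (median -1.36), 11 of 15 of C (median -0.50) and 6 of 7 of D (median -0.93). Members of low paralog number had the more negative medians, at -1.99 for number 1, -1.55 for number 2 and -1.20 for number 3, and numbers 11, 12 and 13 had -0.55, -0.50 and -0.50. The order was not even, since number 5 had a median of -0.28, number 7, with HOXB7 alone, a value of -0.28, and numbers 8 and 9 had medians of -1.21 and -1.24. Across the 48 genes, which share the same libraries and are not independent, Spearman's rho between paralog number and log2 fold change was 0.51 and Pearson's r 0.49.

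**Figure D2:**
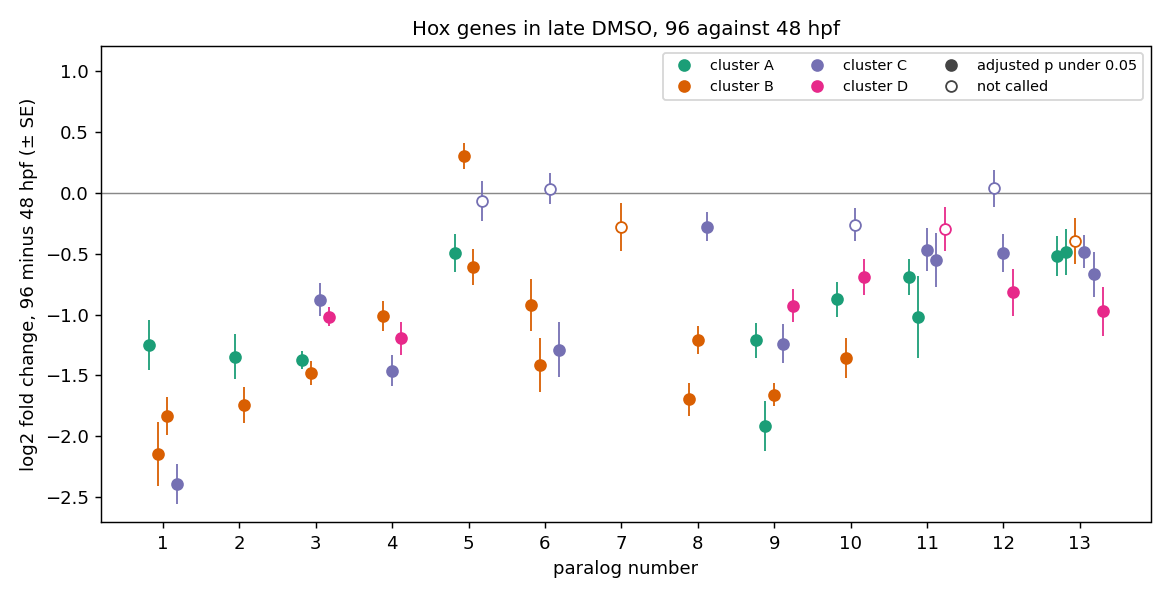
Log2 fold change of each of the 48 Hox genes in DMSO (96 against 48 hpf) by paralog number, coloured by cluster, with bars for the SE, filled points for called genes and open points for the others. All but 3 points lie below 0, and the median is -1.99 for paralog number 1 and -0.50 for number 13.

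HOXA3 fell by 1.37 on the log2 scale (SE 0.077, adjusted p = 1.04e-19), and HOXB3 by 1.48 (SE 0.096, adjusted p = 1.44e-17). HOXB9 (ENSDARG00000056023), a trunk gene, had 63.6 and 60.2 CPM at 48 hpf and 20.1, 19.3 and 19.4 CPM at 96 hpf, a log2 fold change of -1.66 (SE 0.095, adjusted p = 2.69e-19). For hoxc1a (ENSDARG00000070337) the levels were 35.4 and 31.8 CPM and then 5.71, 6.81 and 6.64 CPM (-2.39, SE 0.17, adjusted p = 1.35e-16). In each of these 4 genes every library at 96 hpf lay far below every library at 48 hpf. Among the other anterior genes, hoxb1a changed by -2.15 and HOXB2 by -1.75.

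The gene that rose was HOXB5 (ENSDARG00000013057), with 22.7 and 25.9 CPM at 48 hpf and 29.4, 31.2 and 29.4 CPM at 96 hpf (0.30, SE 0.11, adjusted p = 0.0132). The groups did not overlap, but without library T54 the difference was 0.21 (adjusted p = 0.198). The other copy, HOXB5 (ENSDARG00000054030), had 28.4 and 33.2 CPM and then 22.4, 18.7 and 19.4 CPM and was among those that fell. The 7 members called in neither direction were HOXB7, HOXB13, HOXC5, HOXC6 (ENSDARG00000070343), HOXC10, HOXC12 (ENSDARG00000070352) and HOXD11. The copies of HOXC6, which in the mouse takes part in the identity of limb-innervating motor neurons, also differed: ENSDARG00000070343 had 9.25 and 8.71 CPM and then 9.76, 8.09 and 9.74 CPM, whereas ENSDARG00000101954 had 11.3 and 11.5 CPM and then 5.36, 4.02 and 4.599 CPM.

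Over the whole interval from 36 to 96 hpf, 37 Hox genes fell and 2 rose, where 32.3% of all tested genes fell and 40.2% rose. The median was -0.86 against 0.13 over all tested genes. Both genes that rose were of paralog number 5. HOXB5 (ENSDARG00000013057) had 15.7, 15.2 and 16.4 CPM at 36 hpf and 29.4, 31.2 and 29.4 CPM at 96 hpf (0.93, SE 0.095, adjusted p = 8.96e-12). HOXC5 had 4.87, 3.81 and 5.08 CPM and 8.95, 8.56 and 9.08 CPM (0.95, SE 0.15, adjusted p = 5.96e-07), so that its level at 96 hpf lay within the range of the 2 libraries at 48 hpf. In both genes every 96 hpf library was above every 36 hpf library.

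The 4 decreases with the lowest p were HOXA3 (-1.37, SE 0.071, adjusted p = 1.77e-21), HOXB9, hoxc1a and hoxb1b. HOXB9 went from 59.4, 61.8 and 61.04 CPM at 36 hpf to 20.1, 19.3 and 19.4 CPM (-1.63, adjusted p = 9.37e-21). For hoxc1a, 31.3, 31.3 and 33.7 CPM at 36 hpf preceded the low values at 96 hpf given above (-2.33, adjusted p = 1.35e-17). For hoxb1b (ENSDARG00000054033), a gene of early hindbrain patterning, 31.1, 33.0 and 35.0 CPM were followed by 7.78, 8.09 and 8.04 CPM (-2.05, adjusted p = 1.2e-16). None of these 4 genes was called between 36 and 48 hpf, whereas hoxb1a, already lower at 48 hpf, fell again (0.648, 0.434 and 0.866 CPM at 96 hpf, -2.93).

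Late exposure to 2.4 µM sorafenib was the treatment with most Hox calls. At 96 hpf, 13 members were up-regulated and 6 down-regulated against DMSO, where 7.11% and 12.8% of all tested genes were. The sum of all Hox genes was 593 CPM (SD 25.0, n = 3, from 565 to 614), above the 482 to 502 CPM of the DMSO libraries. The anterior sum was 231 CPM (SD 10.4, from 220 to 240) and the central sum 215 CPM (SD 8.7, from 208 to 225), both without overlap with DMSO. The posterior sum, from 138 to 155 CPM, overlapped the 146 to 154 CPM in DMSO. Cluster B reached 280 CPM (SD 10.5, from 269 to 290) against 222 CPM (SD 6.0, from 215 to 227) in DMSO, and cluster A 102.5 CPM (SD 4.8) against 82.9 CPM (SD 0.49). Clusters C, at 145 CPM (SD 7.5, from 136 to 151) against 132.5 CPM (SD 2.9, from 129 to 135), and D, at 65.9 CPM (SD 3.0, from 62.8 to 68.8) against 57.3 CPM (SD 2.4, from 54.5 to 58.8), had smaller differences, also without overlap.

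The direction of the calls differed between the paralog classes, although the posterior class had calls in both directions. The 6 decreases among the 48 members were near the 12.8% share of all tested genes called lower. Of the 10 anterior members 7 were higher and 0 lower (median log2 fold change 0.45), of the 15 central members 4 were higher and 0 lower (median 0.29), and of the 23 posterior members 2 were higher and 6 lower (median -0.03). The median over all Hox genes was 0.23, and over all tested genes -0.07. Within the posterior class, the 14 members of numbers 11 to 13, a grouping chosen after the values were seen, held all 6 decreases and 1 increase. Their sum was 54.2 CPM (SD 1.99, from 52.0 to 55.8) against 65.6 CPM (SD 0.92, from 64.6 to 66.3) in DMSO. The medians were 0.32, 0.74, 0.45 and 0.50 for paralog numbers 1 to 4, and -0.10, -0.47 and -0.36 for numbers 11, 12 and 13. Spearman's rho between paralog number and log2 fold change was -0.66 over the 48 genes of the same libraries. By cluster, 2 members rose in A, 6 rose and 1 fell in B, 2 rose and 5 fell in C, and 3 rose in D.

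**Figure D3:**
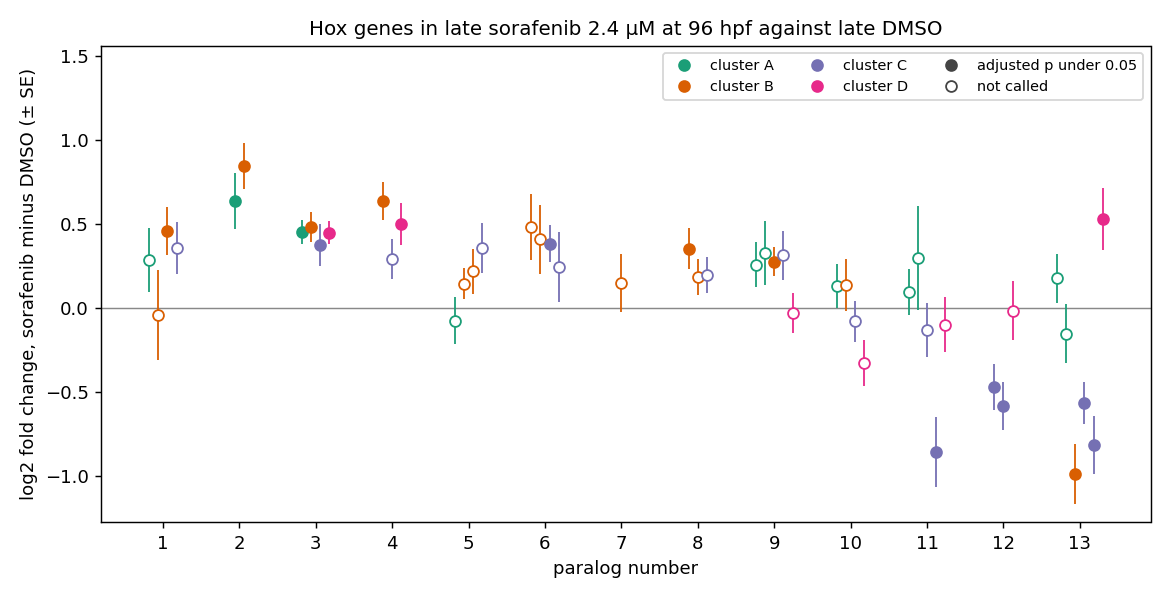
Log2 fold change of each of the 48 Hox genes between late exposure to 2.4 µM sorafenib and DMSO at 96 hpf by paralog number, coloured by cluster, with bars for the SE, filled points for called genes and open points for the others. The called genes of numbers 1 to 4 lie above 0, while numbers 12 and 13 have medians of -0.47 and -0.36.

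All 4 genes of paralog number 3 were up-regulated. On the RefSeq annotation their likely counterparts each overlap another Hox gene, among them hoxb4a for hoxb3a and hoxd4a for hoxd3a. How reads of overlapping genes were counted is not known, so HOXB3 and HOXB4, or HOXD3 and HOXD4, may not be separate observations. HOXA3 had 41.0, 40.9 and 42.7 CPM under 2.4 µM sorafenib against 30.0, 30.5 and 30.6 CPM in DMSO, a log2 fold change of 0.45 (SE 0.070, adjusted p = 3.53e-06). HOXD3 had 27.9, 29.5 and 30.4 CPM against 21.9, 21.5 and 20.9 CPM (0.45, SE 0.069, adjusted p = 3e-06). HOXB3 had 76.98, 80.4 and 82.7 CPM against 58.0, 59.1 and 54.9 CPM (0.48, SE 0.087, adjusted p = 4.98e-05). The groups did not overlap in any of the 3 genes, and the fourth member, hoxc3a, had the smallest change (0.38, adjusted p = 0.0248).

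HOXB2 (ENSDARG00000000175), a hindbrain gene, had 12.1, 14.2 and 17.5 CPM against 8.25, 7.45 and 8.70 CPM, with a log2 fold change of 0.85 (SE 0.13, adjusted p = 6.09e-06). The treated libraries of HOXB2 spread more than those of the paralogs of number 3, yet all lay above DMSO. HOXB4 (ENSDARG00000013533), known in the mouse for its part in blood stem cells, had 15.9, 17.1 and 21.3 CPM against 11.6, 12.0 and 11.3 CPM (0.64, SE 0.11, adjusted p = 3.29e-05). Of the remaining increases, hoxa2b (ENSDARG00000023031), which gives the second pharyngeal arch its identity, had 10.6, 13.0 and 10.1 CPM against 7.40, 7.22 and 7.04 CPM (0.64, SE 0.17, adjusted p = 0.00457). HOXD4 (0.50), hoxb1b (0.46), HOXC6 (ENSDARG00000070343, 0.38), hoxb8b (0.35) and HOXB9 (0.28) were smaller. The posterior hoxd13a (ENSDARG00000059256), a gene of the distal fin, had 1.71, 1.72 and 1.86 CPM against 1.57, 1.02 and 1.08 CPM (0.53, SE 0.18, adjusted p = 0.0346), a change in the opposite direction to the other called members of numbers 11 to 13.

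The 6 decreases lay in clusters B and C. HOXB13 (ENSDARG00000056015), whose mouse counterpart limits the length of the tail, had 3.36, 3.00 and 2.64 CPM against 5.48, 6.24 and 6.16 CPM in DMSO, and fell by 0.99 on the log2 scale (SE 0.18, adjusted p = 4.25e-05). HOXC13 (ENSDARG00000113877) had 1.34, 1.55 and 1.59 CPM against 2.83, 2.70 and 2.37 CPM (-0.82, SE 0.17, adjusted p = 0.000429). No treated library of either gene reached a control library. The second HOXC13 copy (ENSDARG00000070353) differed by -0.57 (adjusted p = 0.000671), and both copies of HOXC12 fell, ENSDARG00000103133 by 0.58 (adjusted p = 0.0023) and ENSDARG00000070352 by 0.47 (adjusted p = 0.00911). For hoxc11b (ENSDARG00000102631) the values were 1.86, 2.44 and 1.72 CPM against 3.89, 3.24 and 3.79 CPM (-0.86, SE 0.21, adjusted p = 0.00204). Other members of the same numbers did not pass the test, with log2 fold changes of -0.15 for hoxa13a, 0.18 for hoxa13b, -0.02 for HOXD12, -0.10 for HOXD11, -0.13 for HOXC11 and 0.10 and 0.30 for the 2 rows named HOXA11.

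In edgeR, leaving out 1 of the 6 libraries at a time gave 12 calls (7 higher and 5 lower, without T69) to 21 calls (without T66). The 11 genes called in every case were HOXA3, HOXB2, HOXB3, HOXB4, HOXB13, hoxc11b, HOXC12 (ENSDARG00000103133), both HOXC13 copies, HOXD3 and HOXD4, whereas the calls of hoxc3a, hoxd13a and hoxb8b were lost in 5, 4 and 4 of 6 cases. The call of hoxa2b was lost without T69 (adjusted p = 0.0545), that of HOXC6 (ENSDARG00000070343) without T77 (0.0991) and that of HOXC12 (ENSDARG00000070352) without T69 (0.0784) or T70 (0.0514), and hoxb1b and HOXB9 were each lost in 3 cases. DESeq2 called the same 19 genes, and edgeR called 32 (26 higher and 6 lower, all 19 among them) when T16, T37 and T49 of other groups were left out of the shared fit. That fit also changes for all tested genes, and their share called is not given for this or the other refits.

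Markers of regions that use Hox genes also moved at this point. The summed CPM of 4 fin genes was 721 to 860 under sorafenib against 1091 to 1186 in DMSO (and2 -0.63, TBX5 0.80), and that of 3 motor neuron genes 69.9 to 80.6 against 94.8 to 98.0 (ISL1 -0.30, CHAT -0.66). Sums of 6 neural genes, at 965 to 1101 against 1031 to 1067, of 5 muscle genes, at 24280 to 27340 against 25200 to 26670, and of 3 liver genes, at 1596 to 1896 against 1511 to 1647, overlapped between the groups. No marker gene of these lists was at 0. Each sum follows its genes with the most reads and does not give the direction of every member, as TBX5 shows for the fin genes. Hindbrain segment genes are given with the upstream genes at the end. The part of these genes in the Hox differences was not tested.

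The 2 concentrations of sorafenib were also compared directly at 96 hpf. Of the 48 members, 7 were higher and 4 lower at 2.4 µM, where 6.31% and 9.95% of all tested genes were, with 5 anterior and 2 central increases and 4 posterior decreases. HOXD3 had 18.8, 22.9 and 23.1 CPM at 1.3 µM, spanning the DMSO libraries and below all libraries at 2.4 µM (difference 0.44, adjusted p = 7.64e-06). HOXB2 had 6.96, 9.73 and 8.90 CPM at 1.3 µM (0.77, adjusted p = 3.73e-05). HOXB4 had 12.1, 13.1 and 12.5 CPM (0.53, adjusted p = 0.000626), and HOXA3 had 30.5, 36.7 and 32.8 CPM (0.32, adjusted p = 0.000944). In all 4 genes every library at 2.4 µM was above every library at 1.3 µM. HOXB3, hoxa2b and HOXD4 were also higher, and HOXB13 (-0.74, adjusted p = 0.0024), HOXC12 (ENSDARG00000103133, -0.56), HOXC13 (ENSDARG00000113877, -0.51) and hoxc11b (-0.61) lower. Without T16, T37 and T49, 23 members were called between the concentrations (18 higher and 5 lower, all 11 among them). The share of all tested genes called in that refit is not given, so the larger count may not be particular to Hox genes.

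At 1.3 µM itself, 0 Hox genes were called against DMSO at 36, 48 or 96 hpf, where 0.0454%, 0.181% and 0.0206% of all tested genes were. In edgeR, 0, 3 and 2 Hox genes had an unadjusted p under 0.05, as did 854, 1006 and 940 of all 24246 tested genes. DESeq2 called 0 Hox genes as well. At 96 hpf the log2 fold changes of the genes above were 0.14 for HOXA3 (SE 0.070), 0.07 for HOXB2 (SE 0.14), 0.11 for HOXB3, 0.11 for HOXB4 and 0.01 for HOXD3 (SE 0.069), with -0.25 for HOXB13 (SE 0.17) and -0.30 for HOXC13 (ENSDARG00000113877, SE 0.17). Values above 0 were seen in 9 of 10 anterior, 11 of 15 central and 6 of 23 posterior members. The corresponding counts were 8, 15 and 5 at 48 hpf and 10, 13 and 14 at 36 hpf. The median over all tested genes was 0.0048, 0 and -0.027 at 36, 48 and 96 hpf. Members of the same libraries are not independent. The comparisons at one age share their DMSO libraries with those of the higher concentration. The sum of paralog numbers 11 to 13 at 1.3 µM was 57.4 to 61.04 CPM, between the libraries of DMSO and of 2.4 µM. That grouping was chosen after the values of these DMSO libraries and of 2.4 µM were seen, so this position does not test an effect of concentration. Early DMSO, without sorafenib, had 56.3 to 58.5 CPM.

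At 2.4 µM and 48 hpf, 0 Hox genes were called, where 0.404% of all tested genes were. An unadjusted p under 0.05 was seen in 2 Hox genes (hoxb1a 0.63, SE 0.24, and hoxa13b -0.34) and in 1213 of all 24246 tested genes. DESeq2 called 0 Hox genes. The anterior sum, at 476 CPM (SD 18.0, from 458 to 494), lay above the 441 to 444 CPM of the 2 DMSO libraries, the central sum, from 310.5 to 342 CPM, above 294 to 307 CPM, and the posterior sum, from 278 to 289 CPM, overlapped 283 to 285 CPM. Values were above 0 in 10 of 10 anterior, 13 of 15 central and 8 of 23 posterior members, where the median over all tested genes was -0.0011. The members share the same libraries and are not independent.

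At 2.4 µM and 36 hpf, 1 Hox gene was called, where 2.23% of all tested genes were. HOXC5 had 10.2 CPM in T16, 5.71 CPM in T18 and 4.86 CPM in T20, against 4.87, 3.81 and 5.08 CPM in DMSO, with a log2 fold change of 0.57 (adjusted p = 0.0426). Only T16 stood clearly above DMSO, and without it the difference was 0.20 (adjusted p = 0.522). T16 had a Hox sum of 1269 CPM, with the low TMM factor named above, while its Hox share of raw counts, 0.0858%, was below the 0.0888% and 0.0877% of T18 and T20. Without T16 the number of Hox calls at 36 hpf was 0, without T18 it was 13 and without T20 12, and it was 0 without any of the DMSO libraries T28, T29 and T30. With T16, T37 and T49 left out, 5 members were called, 1 higher and 4 lower. For none of these refits is the share of all tested genes called given. The step from 1.3 to 2.4 µM gave 0 Hox calls at 36 hpf (0.705% of all tested genes) and 0 at 48 hpf (0.00412%), and DESeq2 called 1 and 0. At these ages 7 and 0 members had an unadjusted p under 0.05, as did 3875 and 782 of all 24246 tested genes. At 36 hpf this step gave 1 call without T16, 3 without T18 and 5 without T20.

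Early exposure to the same 2.4 µM sorafenib gave 0 Hox calls at 96 hpf, where 0.0289% of all tested genes were called, and DESeq2 called 0 Hox genes. An unadjusted p under 0.05 was seen in 2 Hox genes (among them hoxc1a, 0.32) and in 785 of all 24246 tested genes. The Hox sum was 446 to 525 CPM against a mean of 470 CPM (SD 3.4, n = 3) in early DMSO. HOXA3 had 35.1, 32.4, 30.2 and 29.1 CPM against 31.3, 33.0 and 31.5 CPM in DMSO, and HOXB2 had 10.1, 9.51, 8.64 and 7.37 CPM against 9.27, 8.44 and 9.16 CPM. HOXB13 had 4.02, 4.68, 4.96 and 4.81 CPM against 5.53, 5.58 and 5.17 CPM. For HOXA3 and HOXB2 the groups overlapped on both sides, with log2 fold changes of -0.01 (SE 0.066) and -0.01 (SE 0.13). For HOXB13 all 4 exposed libraries were below the 3 controls, at -0.23 (SE 0.16), which did not pass the test. The sum of paralog numbers 11 to 13 was 53.0 to 62.2 CPM against 56.3 to 58.5 CPM.

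The difference between the 2 starts was tested directly, as the change against DMSO after early exposure minus the change after late exposure. This value was called below 0 in 5 members, where it was in 2.59% of all tested genes, and above 0 in 2 members, where it was in 5.44%. Those below 0 were HOXA3 (-0.46, SE 0.096, adjusted p = 0.000932), HOXD3 (-0.45, SE 0.095, adjusted p = 0.00121), HOXB2 (-0.86, SE 0.19, adjusted p = 0.0015), HOXB3 (-0.51, SE 0.12, adjusted p = 0.00357) and HOXB4 (-0.65, SE 0.15, adjusted p = 0.00443). Those above 0 were HOXB13 (0.76, SE 0.24, adjusted p = 0.0421) and HOXC13 (ENSDARG00000113877, 0.79, SE 0.24, adjusted p = 0.0267). With 1 library left out at a time, 5 to 7 members were called, and 15 (4 above and 11 below 0, all 7 among them) without T16, T37 and T49. How many of all tested genes these refits called is not given, so the changed counts may not be particular to Hox genes. After early exposure HOXD3 had 20.6, 21.3, 21.3 and 18.3 CPM against 19.9, 20.4 and 20.6 CPM in early DMSO. HOXB3 had 60.9, 56.6, 51.5 and 52.5 CPM against 53.9, 57.0 and 58.7 CPM. Both overlapped their controls, and the exposed libraries of both lay below all 3 late libraries at 2.4 µM.

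**Figure D4:**
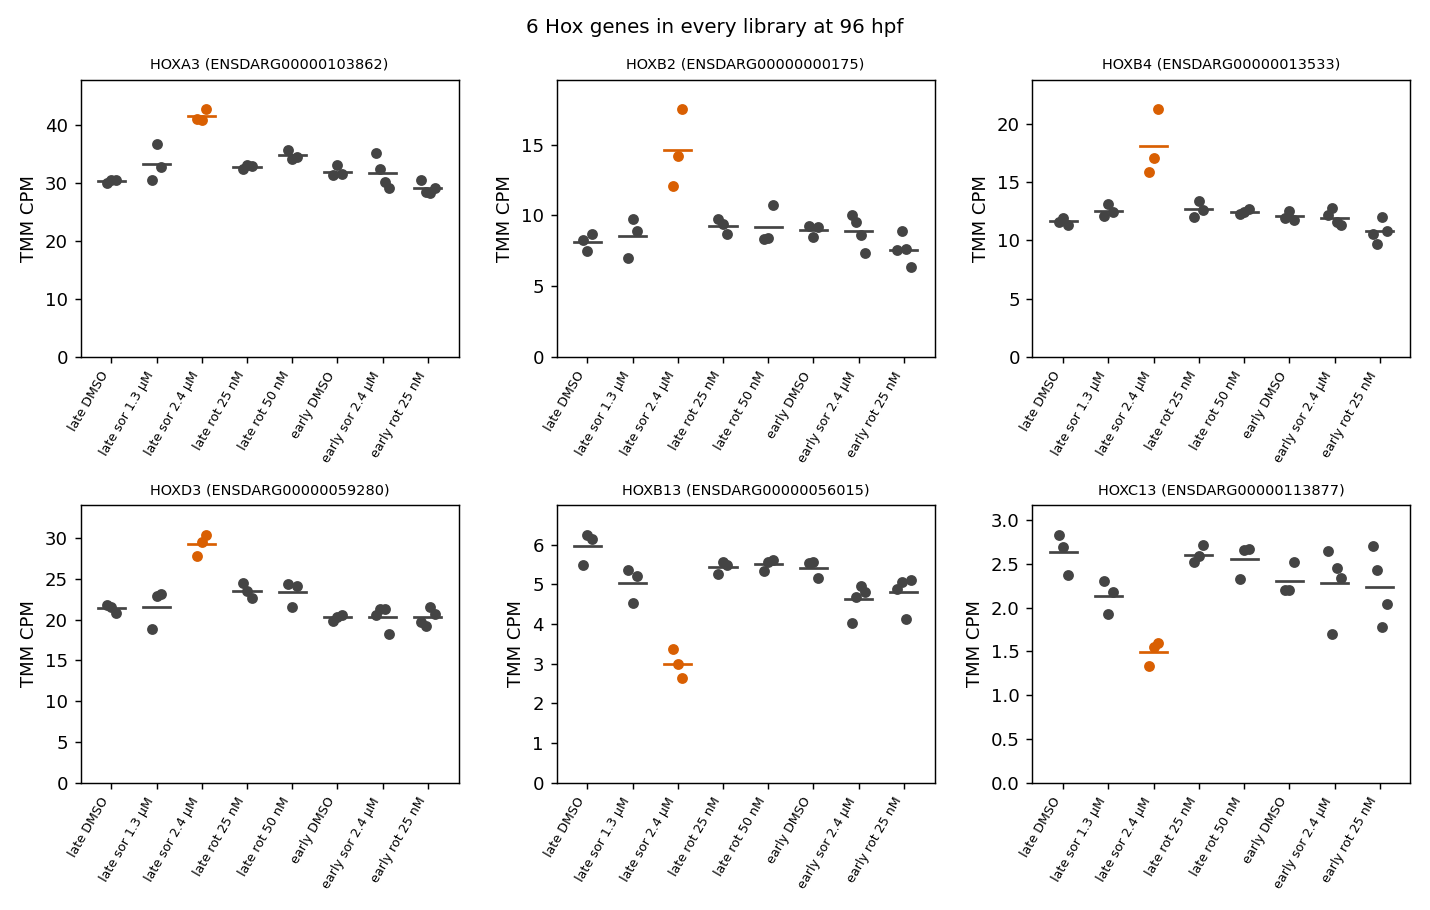
CPM at 96 hpf of 6 Hox genes, by library, in the 8 groups of the late and early exposure scenarios (sor, sorafenib, and rot, rotenone), with points for libraries, lines for group means and late 2.4 µM sorafenib in orange. HOXA3 lies at 40.9 to 42.7 CPM after late exposure to 2.4 µM and at 29.1 to 35.1 CPM after early exposure to the same concentration.

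The DMSO groups of the 2 scenarios differed in 0 Hox genes at 96 hpf, where 0.458% of all tested genes were called. Of the members, 3 had an unadjusted p under 0.05 (hoxb8b -0.29, HOXB8 -0.24 and HOXC13, ENSDARG00000070353, -0.26), as did 1993 of all 24246 tested genes. DESeq2 called 0 Hox genes. Of the 48 members, 39 were lower in the early group, with a median of -0.10, against -0.017 over all tested genes. The sum of paralog numbers 11 to 13 in early DMSO, 56.3 to 58.5 CPM, lay below the 64.6 to 66.3 CPM of late DMSO and above the 52.0 to 55.8 CPM of late exposure to 2.4 µM sorafenib. The grouping was chosen after the values of both late groups were seen, so this order was partly set by the choice. The start of exposure and any other difference between the experiments of the 2 scenarios cannot be told apart.

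Rotenone gave no Hox call against DMSO in any group. With early exposure to 25 nM, 0% of all tested genes and 0 Hox genes were called. An unadjusted p under 0.05 was seen in 2 Hox genes (HOXC4 -0.23 and HOXA3 -0.13) and in 306 of all 24246 tested genes. With late exposure to 25 nM, 0 Hox genes were called at 36, 48 and 96 hpf (0.0866%, 0% and 0% of all tested genes) and 0 had an unadjusted p under 0.05 at any of the 3 ages. Of all 24246 tested genes, 2008, 1792 and 223 had such a p. With 50 nM, 0 were called at 36, 48 and 96 hpf (0.396%, 0.0866% and 0.00412% of all tested genes). An unadjusted p under 0.05 was seen in 5, 7 and 6 Hox genes, and in 3622, 1577 and 853 of all 24246 tested genes. At 36 hpf and 50 nM, 2 Hox genes were called without T38 and 2 without T40, which leaves T37 with 1 other library, and at 48 hpf 1 was called without T16, T37 and T49. DESeq2 called 0 Hox genes in each of these comparisons. The difference between early and late exposure to 25 nM at 96 hpf was called in 0 Hox genes (0% of all tested genes) by edgeR and in 0 Hox genes by DESeq2. In edgeR, HOXA3 (-0.25), HOXB2 (-0.43) and 316 of all 24246 tested genes had an unadjusted p under 0.05.

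At 50 nM and 48 hpf, 43 of the 48 members had a negative log2 fold change against DMSO. Their median was -0.14, against -0.0047 over all tested genes. The anterior sum was 406 to 415 CPM against 441 to 444 CPM, and the central sum 265 to 267 CPM against 294 to 307 CPM. The posterior sum was 250.1 to 267 CPM against 283 to 285 CPM. None of these overlapped, but the DMSO ranges rest on only 2 libraries. The lowest member was hoxa13b, a gene of the distal fin and tail, at -0.59 (SE 0.165, adjusted p = 0.206). Other genes also differed without overlap in this comparison: the summed CPM was 447 to 566 against 575 to 640 for the 4 fin genes, 70.3 to 80.7 against 81.3 to 86.3 for the 3 motor neuron genes and 1460 to 1667 against 1251 to 1381 for the 3 liver genes, while the neural and muscle sums overlapped. Their part in the Hox values was not tested. At 96 hpf, in contrast, 36 of 48 members had a positive value at 50 nM (median 0.08, against -0.010 over all tested genes). The Hox sum was 531 CPM (SD 10.4) against 494 CPM (SD 10.7) in DMSO.

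Between 25 and 50 nM, 1 Hox gene was called at 48 hpf, where 2.67% of all tested genes were. HOXB5 (ENSDARG00000013057) had 20.7, 20.6 and 21.5 CPM at 50 nM and 27.2, 27.6 and 27.0 CPM at 25 nM (-0.38, SE 0.095, adjusted p = 0.0235), with 22.7 and 25.9 CPM in DMSO between them. The call was lost without T49 (adjusted p = 0.112), T50 (0.0577), T61 (0.0862) or T63 (0.0893), while 2 members were called without T47. A negative value was seen in 42 of 48 members (median -0.22, against -0.020 over all tested genes). T49, with the low TMM factor named above, had a Hox sum of 1147 CPM against 1029 and 1033 CPM in the other libraries at 25 nM. At 36 and 96 hpf 0 Hox genes were called between the 2 concentrations (5.61% and 0.0701% of all tested genes), and DESeq2 called 0 at both ages. An unadjusted p under 0.05 was seen in 6 and 3 Hox genes, and in 5540 and 1379 of all 24246 tested genes. At 36 hpf, 3 were called without T38 and 2 without T40, and T37 had a Hox share of 0.0545% of counts against 0.0871% and 0.0866% in the other libraries at 50 nM.

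**Figure D5:**
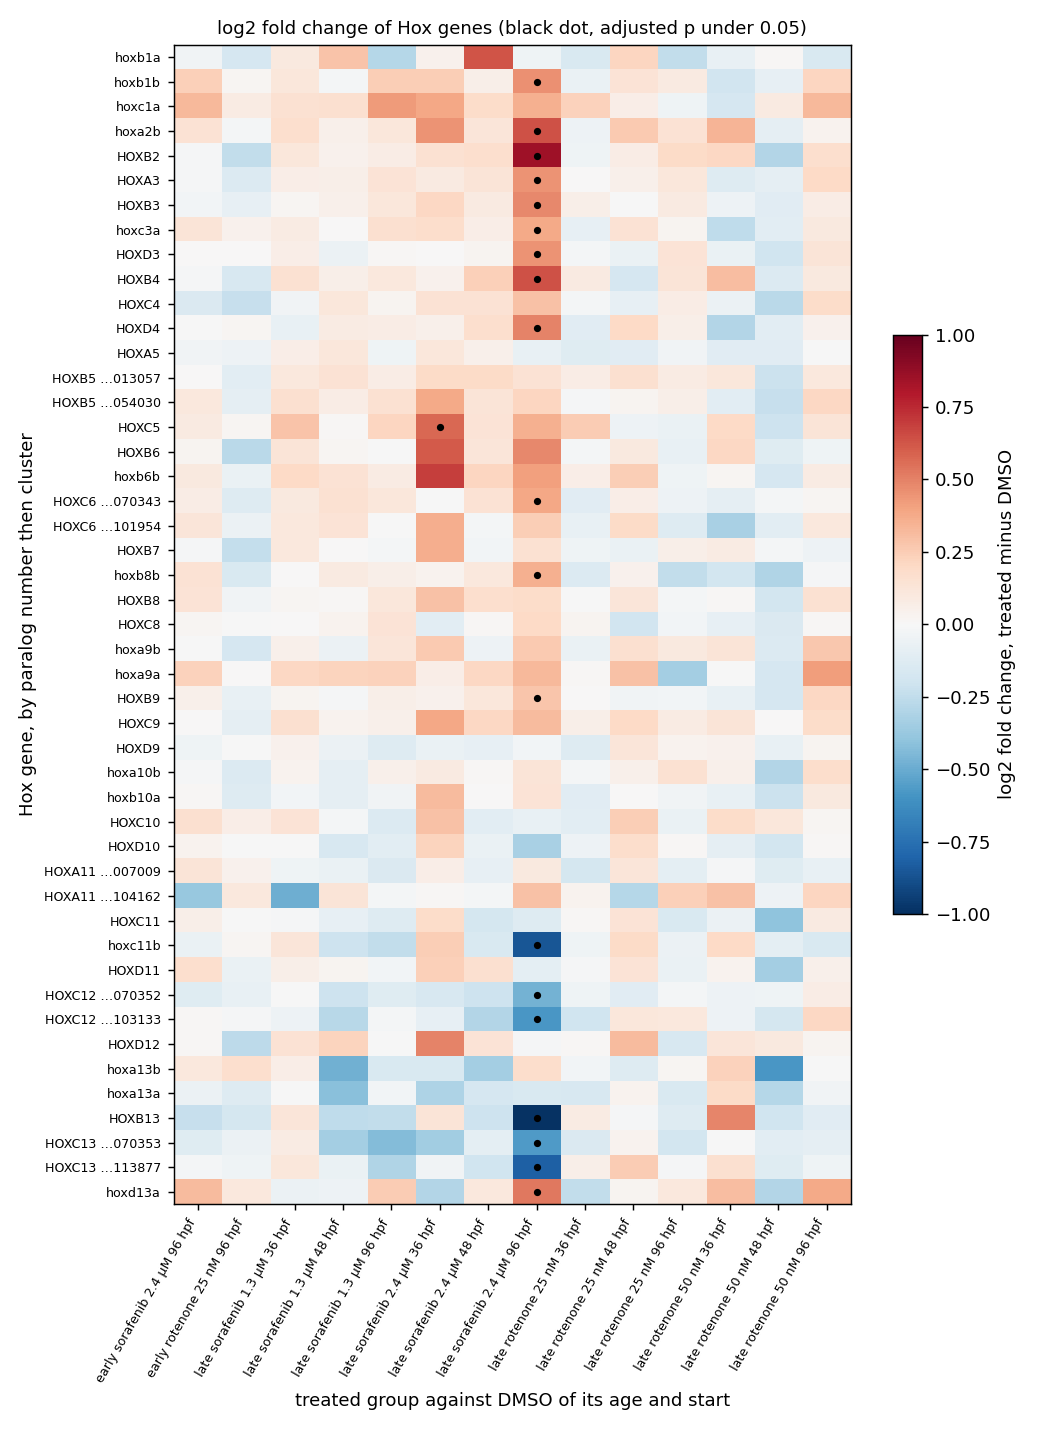
Log2 fold change of all but 1 of the Hox genes (one line per gene, ordered by paralog number and then cluster) in each of the 14 comparisons of an exposed group with DMSO, as a colour scale, with black dots for called genes. The dots stand in the column of late exposure to 2.4 µM sorafenib at 96 hpf, except for HOXC5 at 36 hpf.

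Spearman's rho between paralog number and log2 fold change, given only as a description, was -0.34, -0.63 and -0.59 for 1.3 µM sorafenib at 36, 48 and 96 hpf and -0.36, -0.65 and -0.66 for 2.4 µM, comparisons that share DMSO libraries at each age. For early exposure to sorafenib it was -0.21. For rotenone it was -0.20, -0.00169 and -0.34 at 25 nM, 0.40, -0.19 and -0.30 at 50 nM and 0.07 after early exposure. At 96 hpf the DMSO groups of early and late exposure, which no substance separates, gave -0.50, against -0.59 and -0.66 for late sorafenib at that age. These comparisons all subtract the same late DMSO libraries, so the value is not an independent reference.

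Of 67 genes listed as upstream regulators and partners of Hox genes, 16 were higher and 6 lower at 96 hpf after late exposure to 2.4 µM sorafenib (median 0.15), where 7.11% and 12.8% of all tested genes were. Meis and Pbx cofactors were higher in 4 of 12 cases, namely meis1a (0.51), meis3 (0.49), meis2b (0.26) and MEIS1 (0.24), and lower in 0. Among 5 genes that break down retinoic acid or its precursor, CYP26A1, an enzyme that removes retinoic acid, was higher (0.72, SE 0.13, adjusted p = 6.12e-05), and so was DHRS3 (0.52). Of 4 genes for its synthesis, RDH10 was higher (0.50). Of 10 retinoic acid and retinoid X receptors, rxrbb (-0.25) and rxrga (-0.53) were lower. Of the 8 genes listed under hindbrain segments 6 were higher, among them egr2a (2.75, SE 0.34, adjusted p = 4.21e-08). This list also holds VGLL4 (0.29), a cofactor of TEAD proteins, so the count is not one of segment genes alone.

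Of 3 Cdx genes, cdx1a was lower (-0.58), and of 3 even-skipped genes none passed edgeR's test. Of 11 genes of axis elongation, LIN28A was higher (1.45) and the 2 rows named FGF8 lower (-0.40 and -0.56). Of 11 Polycomb and Trithorax genes, BMI1 (0.46) and cbx2 (0.25) were higher and EZH2 (-0.33) lower. In the test of early against late exposure to sorafenib, 8 of the 67 genes had a lower and 0 a higher value, where 2.59% and 5.44% of all tested genes did.

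With age, these genes fell alongside the Hox genes in most lists. From 48 to 96 hpf in DMSO 40 of 67 were lower and 8 higher (median -0.54), where 26.3% and 32.3% of all tested genes were. Polycomb and Trithorax genes were lower in 10 of 11 cases (EZH2 -1.73), axis elongation genes in 8 of 11 (gdf11 -3.38), the enzymes of retinoic acid breakdown in 4 of 5 (CYP26C1 -2.21, CYP26A1 -1.43) and cofactors in 7 of 12 (meis3 -2.05, pbx4 -1.81), with PBX3 (0.65) and pbx3a (1.21) higher. Cdx genes went the other way, with cdx1a (3.81) and cdx1b (2.94) higher, and egr2a (-2.59) and EGR2 (3.04) moved in opposite directions.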

How the data were processed

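RNA of whole-embryo pools was sequenced from a strand-preserving library (NEBNext Ultra II). Per the labels and the study's methods, the authors aligned reads to GRCz11 with HISAT2 2.1.0 and counted them per gene with featureCounts 2.0.3. The deposited values are raw counts. The annotation release and strand setting were not given in the sources used here. As in the study, 2 of 57 libraries were left out: T14, with 13 counts, and T51. Counts were filtered with filterByExpr and scaled by TMM, and edgeR 4.0.16 (R 4.3.3, limma 3.58.1) was fitted with 1 coefficient per group over 55 libraries (glmQLFit, glmQLFTest), with Benjamini-Hochberg adjustment over 24246 genes. The script was tested on simulated data. SE is the log2 fold change divided by the root of F. DESeq2 1.42.0, RLE scaling, other filters and samples, and leave-one-out fits were alternatives. Nothing says that pools of a group came from separate clutches, so p-values measure the spread between these pools. All members were counted, and some genes are not reported here by name. Values per library are given for up to 4 called members of lowest p per comparison (per direction for age) and for the member of highest CPM in each cluster. Other named members were chosen after their values were seen. Members and lists were chosen with earlier results of these data known. Gene names came from the files and from RefSeq (GRCz12tu). The overlaps between Hox genes were taken from the RefSeq coordinates on that assembly, and not on GRCz11.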

Additional observations from a re-analysis of the deposited data

Results flagged for a closer look

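The following values were singled out because a library lay far from the others of its group, or because the response to sorafenib differed between the 2 exposure scenarios. In the 4 libraries of early exposure to 2.4 µM sorafenib, T1 had 30.0 CPM of hoxc3a against 22.6 to 23.4 CPM in the other 3, and 7.48 CPM of HOXD4 against 5.95 to 6.07 CPM, which passed Dixon's criterion. This was tested in 30 pairs of a gene and a group, and chance marks about 1 in 20. The change after early exposure minus the change after late exposure to 2.4 µM sorafenib at 96 hpf passed edgeR's test in 7 members, at -0.46 for HOXA3, -0.86 for HOXB2, -0.51 for HOXB3, -0.65 for HOXB4, -0.45 for HOXD3, 0.76 for HOXB13 and 0.79 for HOXC13 (ENSDARG00000113877). The next member, HOXC12 (ENSDARG00000103133), had 0.59 and an adjusted p of 0.0505.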

How the results depend on the processing

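Of 592 refits of named genes under alternatives, 544 kept direction and call, 48 kept direction and lost the call, and 0 changed sign. Only genes called in the main fit of that comparison were refitted. The refits share libraries and are not independent, so a kept direction was likely from the start. Counts of called Hox genes moved as follows. The share of all tested genes called in each refit is not given, so a changed count may not be particular to Hox genes. Without libraries T16, T37 and T49, late 2.4 µM sorafenib gave 5 instead of 1 at 36 hpf and 32 instead of 19 at 96 hpf, its step from 1.3 µM gave 8 instead of 0 at 36 hpf and 23 instead of 11 at 96 hpf, early against late sorafenib gave 15 instead of 7, rotenone at 50 nM and 48 hpf gave 1 instead of 0, and its step from 25 nM gave 2 instead of 1 at 48 hpf and 1 instead of 0 at 96 hpf. With only the compared groups in the fit, the counts were 0 for 2.4 µM sorafenib at 36 hpf, 28 for it at 96 hpf, 1 for 25 nM rotenone at 36 hpf, 25 instead of 15 for 48 against 36 hpf, and 0 and 1 for the rotenone step at 48 and 96 hpf. DESeq2 gave 4 for 2.4 µM sorafenib at 36 hpf, 1 for the sorafenib step at 36 hpf and 2 for the rotenone step at 48 hpf. Without the filter, 2.4 µM sorafenib at 36 hpf gave 0, and RLE scaling and a mean count of at least 10 each gave 1 for the rotenone step at 36 hpf. With 1 library left out, counts ranged from 0 to 13 for 2.4 µM sorafenib at 36 hpf, 12 to 21 at 96 hpf, 0 to 2 for 50 nM rotenone at 36 hpf, 8 to 14 for 48 against 36 hpf, 0 to 5 for the sorafenib step at 36 hpf, and 0 to 3 and 0 to 2 for the rotenone step at 36 and 48 hpf. The cause of these changes was not tested. With T51 added back, HOXB5 (ENSDARG00000013057) rose no longer between 48 and 96 hpf (0.20, adjusted p = 0.0961). The median of all tested genes for 96 against 36 hpf was 0.13, and -0.03 without T16, T37 and T49. A fit with the replicate number as a block, possible for early against late DMSO, gave 0 calls as without it. The deviations of same-numbered pools from their group means correlated by 0.176, -0.0199 and 0.25. So few pairs, without a reference value, cannot decide whether these pools share more than a number. Members near 1 CPM, such as hoxd13a, rest on few counts per library.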
